A study of Homo sapiens with 6 samples.

Results

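The genes described here are 31 genes of the p53 pathway, among 57290 genes with transcript abundances in KMM1 cells, an established human multiple myeloma line. They were chosen by name: every transcript whose gene name was on the list of 31 was taken, and its TPM (a transcript abundance that allows for length and sums to the same total in every library) was summed per gene. The TAZ group was KMM1 cells given a TAZ-expressing lentivirus, and the WPI group was KMM1 cells given the empty WPI vector, with 3 libraries each and RNA taken on day 4 after infection. TAZ, encoded by WWTR1, is a transcriptional co-activator of the Hippo pathway that binds DNA through TEAD factors. All 6 libraries share the 1 cell line, a lentiviral infection and poly(A) selection, and the labels do not say whether the replicates came from separate cultures. The p-values therefore measure the spread between these libraries, which may be technical. Of the 31 genes, 28 had a mean of at least 1 TPM over the 6 libraries and were tested, and PLK2, PHLDA3 and SPATA18 fell below that level.

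The p53 protein is a transcription factor that is held at low levels by MDM2 and released by DNA damage, oncogene activity or nutrient stress. It then raises genes that stop the cell cycle, repair DNA, limit growth signalling through mTORC1, clear organelles by autophagy or start apoptosis, along with MDM2 itself, which closes a negative feedback loop. Many of the 31 genes also answer to other factors, so a change in one of them is not in itself a reading of p53 activity.

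Matches to the DNA consensus of p53 were looked up in promoter windows from RefSeq (GRCh38.p14, 250 bases before to 50 after each annotated start). A window was found for 27 of the 31 genes, and RRM2B, TP53INP1, PHLDA3 and GADD45A had none in the table. The p53 full-site consensus spans 20 bases, and both strands were searched with at most 3 mismatches and no spacer. A match was found for 8 of the 27 genes (29.6%), against 6.39% of all 27305 symbols with a window, and with at most 2 mismatches for 3 of 27 (11.1%) against 0.82% of symbols. The closest match of each of the 8 genes is shown because its letters come nearest to the consensus in these windows. Binding of p53 to them was not measured. The 4 core bases of each repeat are in capitals, 5′ to 3′ on the matching strand.
DDB2: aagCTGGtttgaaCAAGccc
AEN: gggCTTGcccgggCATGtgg
MDM2: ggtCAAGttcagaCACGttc
FDXR: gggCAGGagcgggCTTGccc
GDF15: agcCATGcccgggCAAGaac
RPS27L: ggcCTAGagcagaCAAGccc
SESN1: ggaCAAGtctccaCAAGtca
XPC: gaaTTTGcccagaCAAGcaa
The DDB2 match, at chr11:47214969-47214988 on the plus strand, had 1 mismatch. The matches of AEN (chr15:88621306-88621325, plus strand) and MDM2 (chr12:68808923-68808942, plus strand) had 2 mismatches. The other 5, in FDXR, GDF15, RPS27L, SESN1 and XPC, had 3 mismatches.

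The promoters of DRAM1, BTG1 and SFN are shown because these genes gave the largest differences upwards between the groups, and the MDM2 promoter because it is the textbook p53 promoter. Each line holds the 250 bases before the start, and capitals mark matches to the p53 full-site consensus with at most 3 mismatches.
DRAM1: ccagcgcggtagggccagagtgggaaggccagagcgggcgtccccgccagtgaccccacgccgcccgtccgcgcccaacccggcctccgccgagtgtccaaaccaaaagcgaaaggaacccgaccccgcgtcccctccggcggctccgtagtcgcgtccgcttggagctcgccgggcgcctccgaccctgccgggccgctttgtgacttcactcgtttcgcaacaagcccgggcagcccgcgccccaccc
BTG1: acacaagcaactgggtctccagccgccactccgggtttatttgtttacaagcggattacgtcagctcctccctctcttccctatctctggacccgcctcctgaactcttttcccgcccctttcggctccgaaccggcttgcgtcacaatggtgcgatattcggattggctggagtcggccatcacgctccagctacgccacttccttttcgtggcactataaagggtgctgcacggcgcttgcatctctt
SFN: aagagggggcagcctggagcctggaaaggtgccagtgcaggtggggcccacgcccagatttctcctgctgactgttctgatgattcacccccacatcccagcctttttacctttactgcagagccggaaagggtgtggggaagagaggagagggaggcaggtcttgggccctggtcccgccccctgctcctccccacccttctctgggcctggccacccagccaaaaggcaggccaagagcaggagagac
MDM2: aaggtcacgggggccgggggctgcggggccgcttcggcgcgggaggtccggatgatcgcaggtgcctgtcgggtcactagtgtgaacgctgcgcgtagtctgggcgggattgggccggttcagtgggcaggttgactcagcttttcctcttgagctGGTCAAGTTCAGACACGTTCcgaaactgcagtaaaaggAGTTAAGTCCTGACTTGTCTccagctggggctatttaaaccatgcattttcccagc
The DRAM1 window lay at chr12:101877330-101877579 on the plus strand, and its closest match to the consensus had 4 mismatches. The BTG1 window lay at chr12:92145847-92146096 on the minus strand, with 6 mismatches at its closest. The SFN window lay at chr1:26862899-26863148 on the plus strand, with 5 mismatches at its closest. The MDM2 window, at chr12:68808767-68809016 on the plus strand, belongs to the start inside the gene and holds 2 matches, which begin 94 and 56 bases before that start. The letters GGAATG or CATTCC, the core read by TEAD factors, occurred in windows of 5 of the 27 genes (GDF15, PLK3, SESN1, SPATA18 and TP53I3; 18.5%) against 16.7% of all symbols. A match is a description of these letters, and no match says only that they are not in this window.

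WWTR1, the delivered gene, was checked in every library. It stood at 365, 138 and 145 TPM in TAZ libraries 1, 2 and 3, against 2.35, 1.21 and 1.40 TPM in WPI libraries 1, 2 and 3. No library went against its label, and TAZ library 1 carried the most WWTR1. All TPM values given here were scaled by median-of-ratios factors. Aligned sequence came to 1130.4 to 1608.5 megabases per TAZ library and 1099.9 to 2033.2 megabases per WPI library. Among the plasma cell markers that define the labelled cell type, the summed level was 2837 to 3234 TPM in TAZ libraries and 2408 to 3131 TPM in WPI libraries, and 3 of 9 tested (SLAMF7, SDC1 and IRF4) fell. IGJ, the joining chain of secreted antibody, made up the largest share of that sum and was higher in every TAZ library without passing (1841 ± 253 TPM in TAZ libraries and 1147 ± 88.3 TPM in WPI libraries, SD, n = 3 each; limma, adjusted p = 0.131).

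Between TAZ and WPI libraries, 2 of the 28 tested p53 pathway genes rose and 0 fell at an adjusted p under 0.05 (limma, Benjamini-Hochberg over all tested genes). DRAM1, a lysosomal membrane protein that promotes autophagy, was 7.25 times as abundant in TAZ libraries, and BTG1, an antiproliferative partner of the CCR4-NOT deadenylase, was 2.66 times as abundant. The DRAM1 ratio was 15.2 without WPI library 3, and leaving out any other single library ended its call, so that only BTG1 passed. The 2 genes were 7.14% of the members tested, and 3.21% of all 19390 tested genes passed in either direction (2.25% higher, 0.964% lower). At an unadjusted p under 0.05, 5 members were higher and 4 lower, 32.1% of the 28, against 18% of all tested genes. The median log2 difference, TAZ minus WPI, was 0.05 over the 28 members and -0.05 over all tested genes, and without BTG1 and DRAM1 the members' median was -0.03. With 1 library left out the members' median lay between -0.03 and 0.03, below 0 in 5 of 6 cases, and with a filter at 5 TPM it was -0.085. The median of all tested genes lay between -0.087 and -0.041 with 1 library left out, and was -0.0995 with that filter. The differences fell on both sides of 0, with 15 members above and 13 below. Each bulk value is an average over the culture, so fewer cells of a kind and less RNA per cell cannot be told apart.

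**Figure D1:**
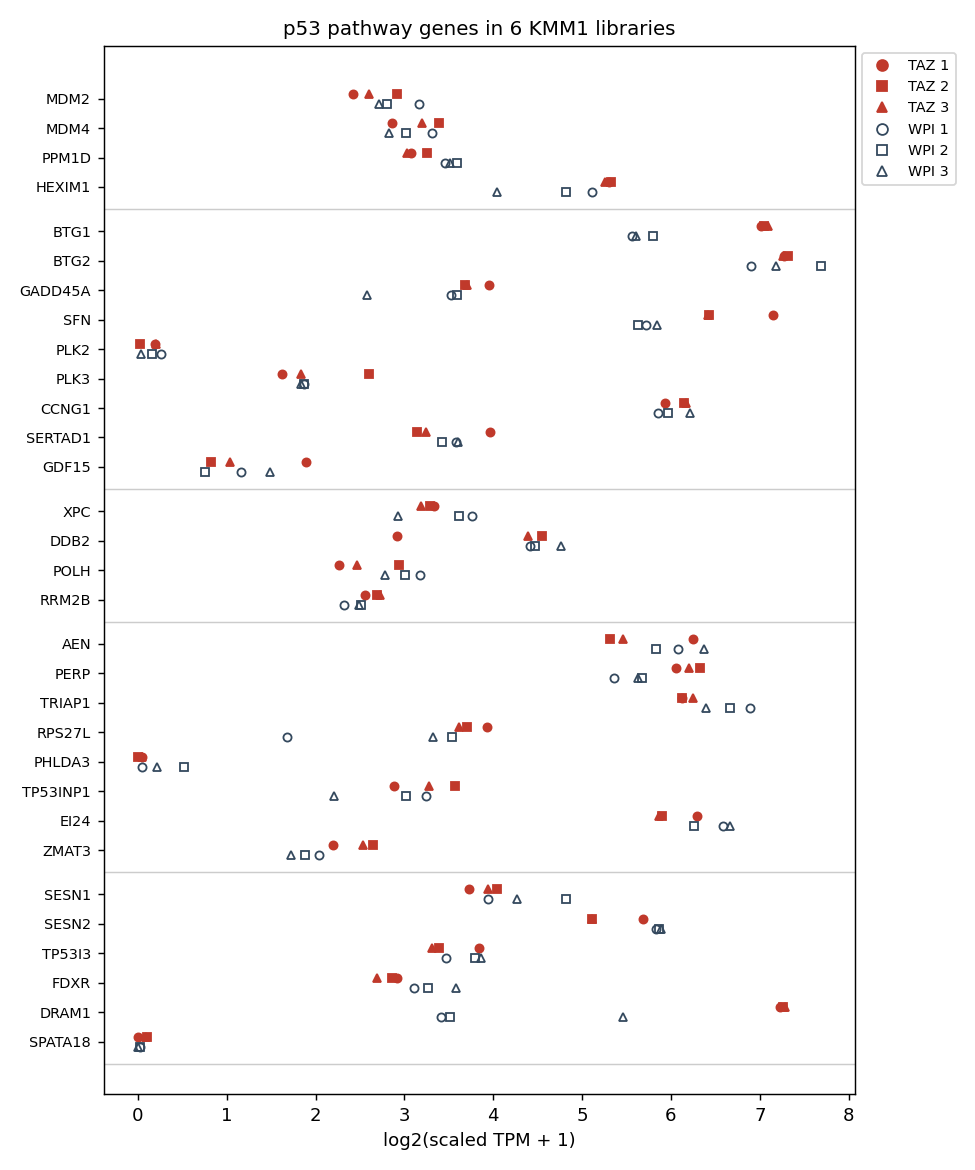
Level of each of the 31 p53 pathway genes in each of the 6 libraries, on log2(scaled TPM + 1), with genes grouped by role, TAZ libraries in filled symbols and WPI libraries in open symbols. DRAM1 and BTG1 show gaps between filled and open symbols, and for DRAM1 the open symbol of WPI library 3 lies between the clusters.

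In 13 of the 28 tested members the 3 TAZ libraries did not overlap the 3 WPI libraries, 46.4% against 24.9% of all tested genes. Of these, 9 were higher in TAZ libraries (BTG1, DRAM1, SFN, PERP, ZMAT3, HEXIM1, RPS27L, GADD45A and RRM2B) and 4 were lower (SESN2, TRIAP1, FDXR and PPM1D). Among all tested genes, 10.1% stood apart upwards and 14.8% downwards. On the deposited TPM without scaling the members' counts were 9 higher and 2 lower, since TRIAP1 and PPM1D then overlapped. Over all 19390 tested genes the counts without scaling were 3042 higher and 1100 lower, so the more common direction was then upwards. Separation of the libraries is a weaker statement than the test, and 11 of the 13 members did not pass the test.

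**Figure D2:**
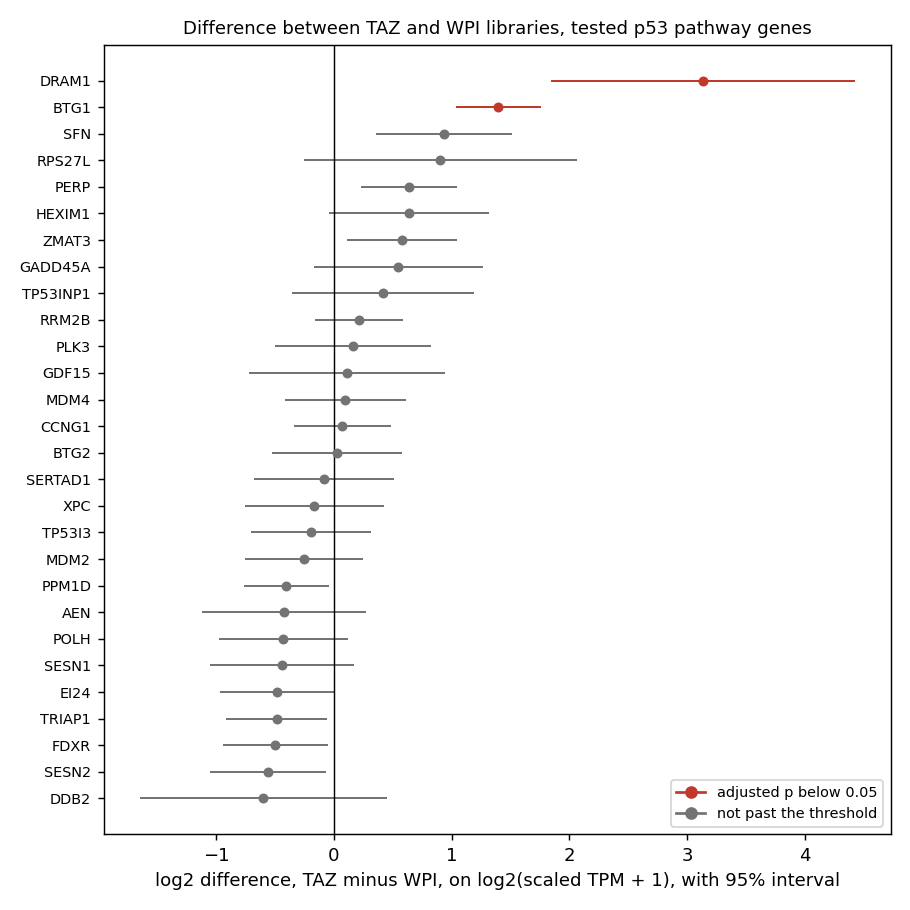
Difference between TAZ and WPI libraries (TAZ minus WPI, on log2(scaled TPM + 1)) for the 28 tested genes, ordered by size, with points for limma estimates and lines for 95% intervals. The intervals of DRAM1 and BTG1, drawn in red, are the only ones of genes that passed, and DDB2 has the lowest estimate, -0.60, which is -0.083 without TAZ library 1.

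Of the 4 regulators of p53, 0 passed (limma; 1 lower at an unadjusted p under 0.05). MDM2, the ubiquitin ligase that marks p53 for degradation, had 4.35, 6.54 and 5.05 TPM in TAZ libraries, against 7.93, 6.0 and 5.57 TPM in WPI libraries. The groups overlapped, and the log2 difference was -0.25 with a 95% interval of -0.75 to 0.25 (limma, adjusted p = 0.562; -0.39 to -0.12 with 1 library left out). MDM4, its relative that masks the activation domain of p53, had 6.25, 9.50 and 8.14 TPM in TAZ libraries, against 8.89, 7.09 and 6.11 TPM in WPI libraries. Its groups overlapped too, with a log2 difference of 0.10 ± 0.21 (SE; limma, adjusted p = 0.840).

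PPM1D, the Wip1 phosphatase that removes activating phosphates from p53 and its kinases, had 7.45, 8.52 and 7.14 TPM in TAZ libraries, against 9.98, 11.1 and 10.4 TPM in WPI libraries. Every TAZ library lay below every WPI library, and the log2 difference of -0.40 ± 0.15 (SE) did not pass (limma, adjusted p = 0.243). HEXIM1, which holds the elongation kinase P-TEFb inactive, had 38.5, 39.1 and 37.2 TPM in TAZ libraries, against 33.5, 27.1 and 15.5 TPM in WPI libraries. The TAZ values were close together and above a scattered WPI group, with a log2 difference of 0.64 ± 0.28 (SE; limma, adjusted p = 0.301), or 0.33 without WPI library 3.

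Among the genes that restrain the cell cycle or growth, 1 of 8 tested rose. BTG1 had 129, 131 and 136 TPM in TAZ libraries, against 46.1, 54.7 and 47.9 TPM in WPI libraries. The 6 values formed a tight cluster per group, with means of 132 ± 3.66 and 49.6 ± 4.54 TPM (SD, n = 3 each) in TAZ and WPI libraries. The log2 difference was 1.40 ± 0.15 (SE; 95% interval 1.03 to 1.76; limma, adjusted p = 0.00491). BTG1 (ENSG00000133639.3) lies on the minus strand of chromosome 12, from 92536286 to 92539673 in hg19, and both exons of its coding transcript were deeper in every TAZ library. Read depth per gigabase of aligned sequence over its second and longer exon (1938 bases) was 70.4, 84.4 and 88.6 in TAZ libraries, against 26.6, 32.1 and 25.6 in WPI libraries. Over the first exon (510 bases) it was 41.0, 31.3 and 44.5 in TAZ libraries, against 12.1, 8.84 and 15.8 in WPI libraries. Transcript by transcript, 39 member transcripts were tested, and the BTG1 transcript ENST00000256015.3 was the 1 that passed (log2 difference 1.39 ± 0.12 SE; limma, adjusted p = 0.0101), against 1.6% of all 29480 transcripts tested.

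BTG2, the close relative of BTG1 with the same deadenylase partner and a textbook p53 target, gave no call. It had 154, 159 and 152 TPM in TAZ libraries, against 118, 205 and 144 TPM in WPI libraries. The TAZ libraries fell inside the WPI range, and the log2 difference was 0.03 with a 95% interval of -0.52 to 0.58 (limma, adjusted p = 0.962). With 1 library left out, the log2 difference lay between -0.15 and 0.24. In WPI library 1 the second BTG2 exon (585 bases) held 0.0842% of the aligned bases of the transcript, against 47.7% to 51.4% in the other libraries. The BTG2 level of WPI library 1, and the ratio that uses it, are therefore less certain. The ratio of BTG1 to BTG2 within a library, which does not depend on scaling, was 0.837, 0.825 and 0.891 in TAZ libraries and 0.390, 0.267 and 0.333 in WPI libraries. The ratios did not overlap, at the smallest p that 3 against 3 libraries allow (exact two-sided permutation test, p = 0.1, Benjamini-Hochberg 0.15 over 3 ratios).

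SFN, which encodes 14-3-3σ, a protein that keeps cyclin-dependent kinase complexes out of the nucleus at the G2/M checkpoint, was the next largest difference of this kind. It had 141, 85.4 and 84.2 TPM in TAZ libraries, against 51.7, 48.4 and 56.4 TPM in WPI libraries. All TAZ libraries lay above all WPI libraries, with library 1 highest, and the mean was 1.98 times as high. The log2 difference of 0.94 ± 0.24 (SE) did not pass with scaling (limma, adjusted p = 0.112) and passed without it (log2 difference 1.19, adjusted p = 0.0167).

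SFN and PERP are also epithelial genes, and epithelial markers moved in the same libraries. Of 8 such markers, 6 were tested and 4 rose (KRT18, KRT8, KRT5 and CLDN4), with a summed level of 972 to 2312 TPM in TAZ libraries and 198 to 326 TPM in WPI libraries. Most of that sum was KRT8, at 1337 ± 762 TPM in TAZ libraries and 167 ± 45.5 TPM in WPI libraries (SD, n = 3 each). CDH1, the epithelial cadherin, was lower in every TAZ library without passing (25.2 ± 7.08 TPM in TAZ libraries and 48.7 ± 10.5 TPM in WPI libraries; limma, adjusted p = 0.161). EPCAM overlapped, at 49.1 ± 5.91 TPM in TAZ libraries and 53.3 ± 27.1 TPM in WPI libraries. Of 9 fibroblast markers, 3 were tested and 2 rose (DCN and LUM), with sums of 38.0 to 44.97 TPM in TAZ libraries and 2.31 to 3.10 TPM in WPI libraries. Markers of T and NK cells summed to 2.90 to 3.53 TPM in TAZ libraries and 1.99 to 2.59 TPM in WPI libraries, with NKG7 at 0 in all 6. Myeloid markers summed to 1.99 to 2.05 TPM in TAZ libraries and 5.09 to 5.87 TPM in WPI libraries, with CD14 lower and CD68 and S100A9 at 0 in all 6. The part of these markers in the member genes' differences was not tested.

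The other arrest genes gave smaller differences, none past the test. GADD45A, a stress sensor that binds PCNA and cyclin-dependent kinase 1, had 14.4, 11.8 and 12.01 TPM in TAZ libraries, against 10.5, 11.1 and 4.96 TPM in WPI libraries. The groups did not overlap, though WPI library 3 alone was far below (log2 difference 0.55 ± 0.30 SE, or 0.21 without that library; limma, adjusted p = 0.387). CCNG1, cyclin G1, which directs a phosphatase to MDM2, averaged 67.0 ± 6.11 TPM in TAZ libraries and 63.9 ± 8.32 TPM in WPI libraries (SD, n = 3 each). PLK3, a stress-activated polo-like kinase, averaged 3.24 ± 1.6 TPM in TAZ libraries and 2.63 ± 0.0521 TPM in WPI libraries (SD, n = 3 each). Its TAZ spread came from library 2, at 5.07 TPM. SERTAD1, a regulator of E2F activity, averaged 10.3 ± 3.74 TPM in TAZ libraries and 10.6 ± 0.793 TPM in WPI libraries. GDF15, a secreted stress cytokine, averaged 1.504 ± 1.04 TPM in TAZ libraries and 1.24 ± 0.559 TPM in WPI libraries. The related kinase PLK2 stayed at or below 0.155 TPM in TAZ libraries and at or below 0.199 TPM in WPI libraries, too low to compare.

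**Figure D3:**
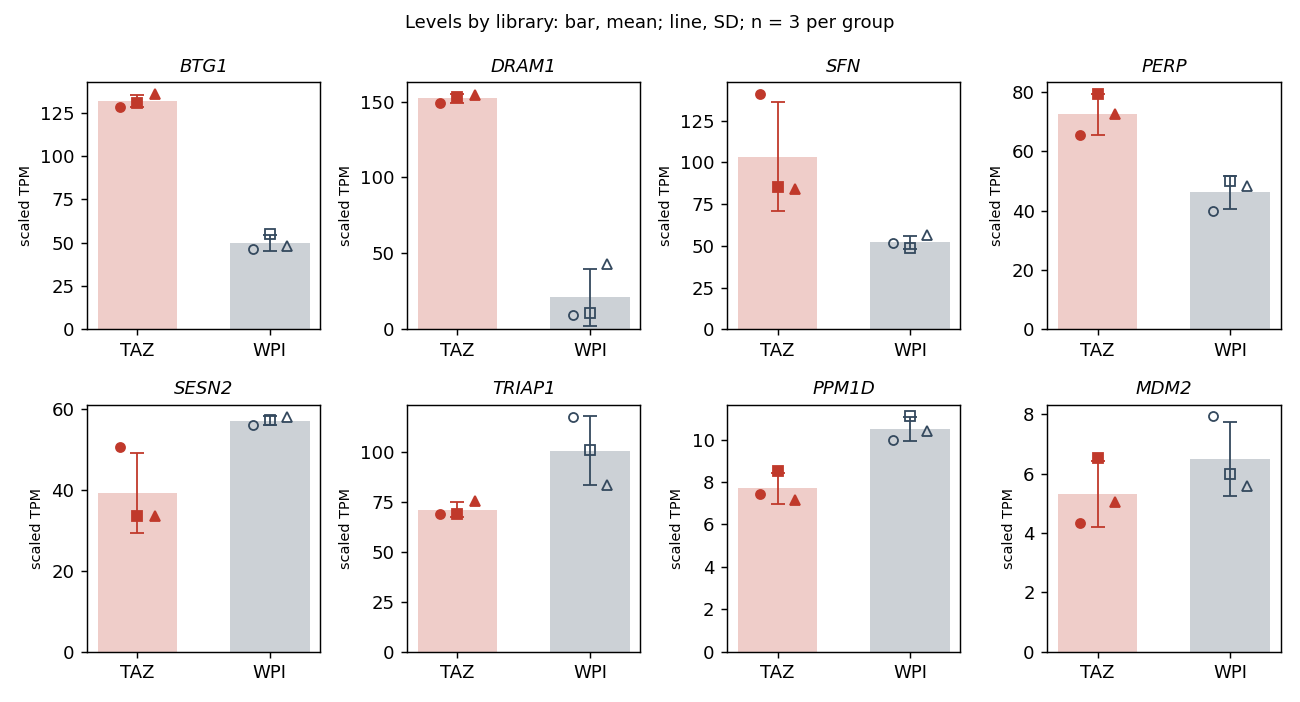
Scaled TPM of 8 p53 pathway genes by library, with TAZ libraries left of WPI libraries, bars for group means and lines for the SD over 3 libraries. BTG1, SFN, PERP and DRAM1 are higher in every TAZ library, and on this scaled measure SESN2, TRIAP1 and PPM1D are lower in every TAZ library, while MDM2 overlaps.

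Of the 4 repair and nucleotide supply genes, 0 passed (limma; 0 also at an unadjusted p under 0.05). DDB2, the sensor of ultraviolet lesions whose promoter held the closest p53 match above, had 6.54, 22.4 and 20.01 TPM in TAZ libraries, against 20.3, 21.1 and 26.2 TPM in WPI libraries. The low value was TAZ library 1 alone, where its last exon held 0.0265% of the aligned bases of the transcript, against 33.7% and 44.1% in the other TAZ libraries and 36.9% to 49.2% in WPI libraries. The log2 difference of -0.60 had a 95% interval of -1.65 to 0.45 (limma, adjusted p = 0.510), and without TAZ library 1 it was -0.083. RRM2B, the p53-inducible ribonucleotide reductase subunit, had 4.88, 5.43 and 5.59 TPM in TAZ libraries, against 4.01, 4.69 and 4.60 TPM in WPI libraries, a narrow separation (log2 difference 0.21 ± 0.16 SE; limma, adjusted p = 0.506). XPC, which recognises helix-distorting lesions, averaged 8.66 ± 0.504 TPM in TAZ libraries and 10.2 ± 3.14 TPM in WPI libraries. POLH, the polymerase that copies past ultraviolet damage, averaged 4.996 ± 1.48 TPM in TAZ libraries and 6.96 ± 1.08 TPM in WPI libraries (SD, n = 3 each). XPC and POLH overlap other expressed genes (LSM3 and GTPBP2) in the annotation, so their levels are less certain.

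Genes of apoptosis and survival gave differences of both signs, and 0 of 7 tested passed (limma; 2 higher and 1 lower at an unadjusted p under 0.05). PERP, a membrane protein of desmosomes and an apoptosis effector of p53, had 65.5, 79.2 and 72.7 TPM in TAZ libraries, against 40.0, 50.2 and 48.5 TPM in WPI libraries. No TAZ library came near a WPI library, and the log2 difference was 0.64 ± 0.17 (SE; 95% interval 0.23 to 1.05; limma, adjusted p = 0.122). ZMAT3, an RNA-binding zinc finger protein, had 3.58, 5.28 and 4.78 TPM in TAZ libraries, against 3.10, 2.68 and 2.31 TPM in WPI libraries. It too separated the groups without passing (log2 difference 0.58 ± 0.20 SE; limma, adjusted p = 0.206).

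TRIAP1, a small mitochondrial protein that protects against apoptosis, was lower in every TAZ library on this scale. It had 68.7, 69.0 and 75.1 TPM in TAZ libraries, against 117, 100.7 and 83.5 TPM in WPI libraries (log2 difference -0.49 ± 0.18 SE; limma, adjusted p = 0.238). EI24, an endoplasmic reticulum protein needed for autophagy, had 77.6, 58.9 and 57.5 TPM in TAZ libraries, against 95.4, 75.3 and 100.7 TPM in WPI libraries. TAZ library 1 overlapped the WPI group (log2 difference -0.48 ± 0.20 SE; limma, adjusted p = 0.278). AEN, a nuclease that cuts DNA in dying cells, had 74.8, 38.8 and 43.1 TPM in TAZ libraries, against 66.6, 56.1 and 82.0 TPM in WPI libraries. As with EI24, TAZ library 1 was the high one (log2 difference -0.42 ± 0.29 SE, or -0.71 without it; limma, adjusted p = 0.483). RPS27L, a ribosomal protein relative that binds MDM2, had 14.2, 12.01 and 11.2 TPM in TAZ libraries, against 2.20, 10.6 and 8.99 TPM in WPI libraries. The log2 difference of 0.90 ± 0.48 (SE; limma, adjusted p = 0.377) was 0.32 without WPI library 1, and the overlapping gene LACTB was at 30.0 ± 1.29 TPM in TAZ libraries and 14.6 ± 2.85 TPM in WPI libraries (SD, n = 3 each). TP53INP1, which supports autophagy and apoptosis, averaged 8.63 ± 2.25 TPM in TAZ libraries and 6.40 ± 2.48 TPM in WPI libraries. PHLDA3, a repressor of AKT, was listed below 1 TPM in all 6 libraries.

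Of the genes of redox balance, metabolism, autophagy and mitochondria, 1 of 5 tested rose. DRAM1 (ENSG00000136048.9, chromosome 12, 102271129 to 102405908 in hg19, plus strand) had 149, 153 and 154 TPM in TAZ libraries, against 9.65, 10.4 and 42.9 TPM in WPI libraries. The TAZ values lay within a few TPM of each other, and WPI library 3 stood well above the other controls, where WWTR1 was at 1.40 TPM. The log2 difference was 3.13 ± 0.54 (SE; 95% interval 1.84 to 4.42; limma, adjusted p = 0.0325). Without WPI library 3 the mean of TAZ libraries was 15.2 times that of the other WPI libraries, with a log2 difference of 3.79 and an adjusted p of 0.000938 (limma). Leaving out any other single library gave adjusted p between 0.0875 and 0.134, so among these 6 exclusions the call was kept only without WPI library 3.

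The exons of DRAM1 were covered unevenly. Over its last exon (2408 bases), depth per gigabase was 91.2, 112 and 112 in TAZ libraries, against 5.82, 6.61 and 29.2 in WPI libraries. Exon 4 had 98.98, 108 and 122 in TAZ libraries and 0 in every WPI library. Exon 1 had 32.9, 17.8 and 14.7 in TAZ libraries, against 2.13, 2.58 and 6.83 in WPI libraries, and exons 2 and 5 were listed at 0 in all 6. Exons 1, 4 and 7 were deeper in every TAZ library than in any WPI library, and WPI library 3 stood above the other controls in exons 1 and 7. Exon 3 had 61.3, 0 and 69.5 in TAZ libraries and 0 in every WPI library. Exon 6 broke the pattern, with 0, 0 and 72.3 in TAZ libraries against 3.08, 4.80 and 0 in WPI libraries. The leading DRAM1 transcript, ENST00000258534.8, did not pass the transcript test (log2 difference 3.18 ± 0.61 SE; limma, adjusted p = 0.117).

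**Figure D4:**
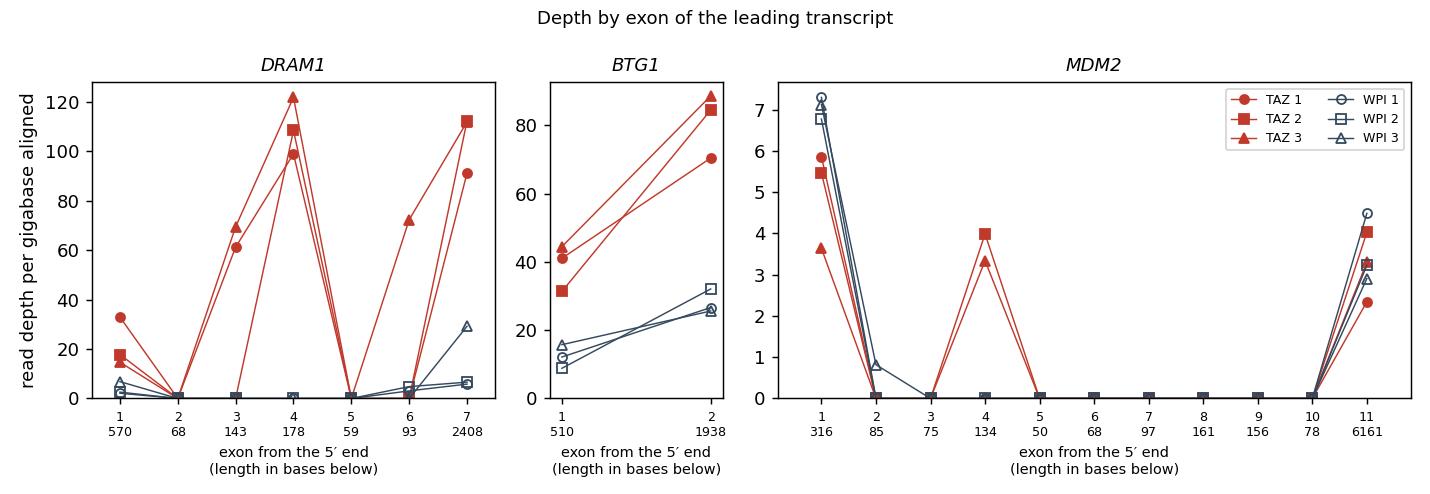
Depth per gigabase of aligned sequence over each exon of the leading transcript of DRAM1, BTG1 and MDM2, from the 5′ end, with exon lengths in bases under the axis, TAZ libraries filled and WPI libraries open. Both exons of BTG1 and exons 1, 4 and 7 of DRAM1 are deeper in every TAZ library, while other DRAM1 exons and short MDM2 exons sit at 0 in some or all libraries.

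Zeros over short exons were general. In the leading transcripts of the members, 22 of 38 internal exons of at most 100 bases were listed at 0 in all 6 libraries (57.9%), against 1 of 17 longer than 200 bases (5.88%) and 0 of 26 last exons. Longer exons could still be nearly unread in some libraries. In WPI library 1, depth per gigabase was 0.111 over BTG2 exon 2, 0.525 over the last SESN1 exon and 0.196 over the last RPS27L exon. In TAZ library 1 it was 0.00389 over the last DDB2 exon. CCNG1 exon 2 (264 bases) had 31.4, 46.5 and 33.6 in TAZ libraries, against 0, 0.351 and 0.00668 in WPI libraries. For MDM2 the last exon, of 6161 bases, held between 88.6% and 92.7% of the aligned bases of its transcript in TAZ libraries and between 88.5% and 92.3% in WPI libraries. All the TPM of MDM2 stood on ENST00000462284.1.

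The sestrins, which restrain mTORC1 when amino acids or energy are short, were not called. SESN2 had 50.6, 33.5 and 33.7 TPM in TAZ libraries, against 56.1, 57.3 and 58.1 TPM in WPI libraries. The WPI libraries were nearly equal, all 3 TAZ libraries were lower, and TAZ library 1 was the closest to them (log2 difference -0.56 ± 0.20 SE; 95% interval -1.05 to -0.07; limma, adjusted p = 0.233). SESN1 had 12.3, 15.5 and 14.3 TPM in TAZ libraries, against 14.3, 27.3 and 18.2 TPM in WPI libraries, with overlap (log2 difference -0.44 ± 0.25 SE; limma, adjusted p = 0.410). Without WPI library 2, the highest, its log2 difference was -0.20, and without WPI library 1 it was -0.64. In WPI library 1 the last SESN1 exon held 2.46% of the aligned bases of the transcript. It held 49.2% to 56.1% in TAZ libraries, 50.3% in WPI library 2 and 44.1% in WPI library 3. The SESN1 level of WPI library 1, which also enters the ratio that follows, is therefore less certain. Within libraries the ratio of SESN2 to SESN1 was 4.13, 2.16 and 2.35 in TAZ libraries and 3.91, 2.10 and 3.19 in WPI libraries, with full overlap (exact two-sided permutation test, p = 1, also 1 after adjustment over the 3 ratios).

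FDXR, the mitochondrial ferredoxin reductase, had 6.57, 6.26 and 5.44 TPM in TAZ libraries, against 7.60, 8.61 and 10.99 TPM in WPI libraries. Every TAZ library was lower, with a log2 difference of -0.50 ± 0.19 (SE; limma, adjusted p = 0.242). TP53I3, a quinone oxidoreductase linked to reactive oxygen, averaged 10.6 ± 2.41 TPM in TAZ libraries and 12.1 ± 1.85 TPM in WPI libraries (SD, n = 3 each; limma, adjusted p = 0.657). SPATA18, a mitochondrial quality control protein, was at or below 0.073 TPM in TAZ libraries and at or below 0.0157 TPM in WPI libraries.

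**Figure D5:**
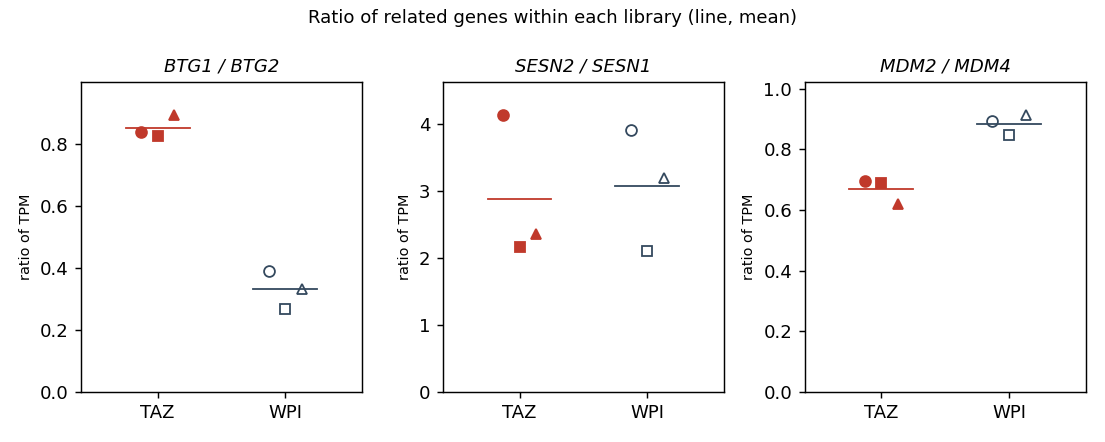
Ratio of scaled TPM of related genes within each library (BTG1 to BTG2, SESN2 to SESN1, MDM2 to MDM4), with TAZ libraries left of WPI libraries and lines at group means. The BTG1 to BTG2 ratio is higher and the MDM2 to MDM4 ratio lower in every TAZ library, while the sestrin ratios overlap.

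The ratio of MDM2 to MDM4 separated the groups where neither gene did. It was 0.696, 0.688 and 0.620 in TAZ libraries and 0.892, 0.846 and 0.912 in WPI libraries, a log2 difference of -0.40. With 3 libraries a group the exact two-sided permutation test gave p = 0.1, the smallest it allows, and 0.15 after Benjamini-Hochberg adjustment over 3 ratios. The last exon of the leading MDM4 transcript (9008 bases) held 100% of its aligned bases in every library. MDM4 also overlaps another expressed gene in the annotation (RP11-430C7.2, mean 3.99 TPM), so its level and this ratio are less certain.

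The levels of the members spanned a wide range, and their order differed between the groups at the top. In TAZ libraries BTG2 (155 ± 3.32 TPM), DRAM1 (152 ± 2.87) and BTG1 (132 ± 3.66) led, and the gap between BTG2 and DRAM1 was within their spread. In WPI libraries BTG2 (156 ± 44.6 TPM), TRIAP1 (100.6 ± 17.01) and EI24 (90.5 ± 13.4) led, and TRIAP1 and EI24 did not differ beyond their spread. DRAM1 ranked 2nd of 28 in TAZ libraries and 12th in WPI libraries, and BTG1 ranked 3rd and 8th. GDF15, PLK3 and ZMAT3 were the lowest of the tested members in both groups.

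Split by the promoter letters, the 8 tested members with a p53 match gave 0 calls, with 2 above 0 and 6 below (median log2 difference -0.34). The 17 without a match gave both calls, with 10 above 0 and 7 below (median 0.07). GADD45A, TP53INP1 and RRM2B were tested but had no window, so they are in neither set (log2 differences 0.55, 0.42 and 0.21). A match counted in any window of a gene, and that window need not hold the start of the RNA measured. The split is a description of a small set, with no test.

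Genes around the list give the setting. Of 13 upstream kinases and regulators of p53, 0 passed (limma; 1 at an unadjusted p under 0.05). Of 41 other established targets, 30 were tested, and 1 rose and 0 fell (limma; 4 higher and 5 lower at an unadjusted p under 0.05). Over all tested genes, 3.21% passed in either direction and 18% had an unadjusted p under 0.05 (limma). The 1 target that rose was CDKN1A, which encodes the cyclin-dependent kinase inhibitor p21. CDKN1A had 18.3, 12.1 and 13.7 TPM in TAZ libraries, against 5.21, 5.30 and 5.66 TPM in WPI libraries (log2 difference 1.28 ± 0.19 SE; limma, adjusted p = 0.0186). Whether this call holds in the other settings was not examined.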

How the data were processed

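RNA of KMM1 cells was profiled in 6 libraries, 3 per group, grouped by the labels' titles. Per the labels' protocols, poly(A) RNA was fragmented with RNase III and sequenced on an Ion Torrent Proton, with 2 libraries on each chip. The sources used here do not pair libraries with chips, so chip and group cannot be told apart. Spike-in RNA was not analysed here. Per the submitters' processing notes, STAR 2.3.0, Bowtie2 2.0.0 and StringTie 1.3.3b were used with hg19; neither the annotation release nor strand use is given in the sources used here. The authors deposited TPM, FPKM and coverage per transcript, and no read counts were used. Depth was recovered from the ratio of deposited coverage to deposited FPKM.

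Transcript TPM was summed per gene and scaled by the median of ratios over 28148 genes above 0 in every library. Genes with a mean deposited TPM of at least 1 (19390) entered limma 3.58.1 (R 4.3.3; lmFit, eBayes with trend and robust) as log2(scaled TPM + 1), TAZ against WPI without a block, and p was adjusted by Benjamini-Hochberg over all tested genes. Fold changes on this scale understate the change of low genes. Ratios of related genes used an exact two-sided permutation test. The median SE was 0.24 on the log2 scale, over all tested genes. Every member was accounted for, and the DRAM1, BTG1 and SFN promoters were chosen for printing after their differences were seen. The members, marker lists and related gene lists were chosen with earlier results of these data known. Reads shared with pseudogenes (EI24P2, CCNG1P1) or overlapping genes (7 members) leave those levels less certain. Alternatives were another scaling, pseudocount, filter and eBayes setting, FPKM, a replicate block, and leaving out each library.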

Additional observations from a re-analysis of the deposited data

How the results depend on the processing

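BTG1 was called in 13 of 14 other settings (log2 difference 1.35 to 1.65, adjusted p 0.00384 to 0.0596), all but the replicate block. DRAM1 was called in 7 of 14 (log2 2.78 to 3.79, adjusted p 0.000938 to 0.134), and lost without the filter (0.102), under the block (0.0888) and without any one library except WPI library 3; the cause was not tested. SFN was called in 1 of 14, without scaling. The other 25 tested members were called in 0 settings (limma; lowest adjusted p 0.0747). Members higher numbered 2, with 1 without the filter, 0 under the block (limma, 4 at an unadjusted p under 0.05 in either direction) and 1 to 2 with a library left out; members lower numbered 0 in every setting (limma, 4 at an unadjusted p under 0.05 with all libraries). Genes higher numbered 436, with 290 without the filter, 202 under the block and 224 to 513 with a library left out. Genes lower numbered 187, with 85 without scaling, 62 without the filter, 34 under the block and 54 to 261 with a library left out. Transcripts higher numbered 326 and lower 145, with 0 and 0 under the block (limma; 1198 and 1479 at an unadjusted p under 0.05) and 168 to 457 and 100 to 307 with a library left out. Same-numbered libraries deviated with correlations of 0.00401, -0.0244 and -0.0549, and 0 of 3 TAZ libraries correlated best with its own number. With 3 libraries a group, these correlations cannot show whether same-numbered libraries shared a culture, infection or chip. Without scaling, the median log2 difference of all genes was 0.17 and of the members 0.27, and TP53I3 (0.046), XPC (0.069) and SERTAD1 (0.15) reversed. With a library left out, reversals occurred in CCNG1 (-0.0071 to 0.16), GDF15 (-0.21 to 0.32), XPC (-0.43 to 0.00036), BTG2 (-0.15 to 0.24), PLK3 (-0.13 to 0.36), SERTAD1 (-0.35 to 0.064), MDM4 (-0.028 to 0.24) and the SESN2 to SESN1 ratio (-0.40 to 0.093). Whether depth set which short exons and low genes were seen was not tested.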
